A study of Mus musculus with 27 samples.

Results

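The genes described are 7 markers of neural progenitors and radial glia, Sox1, Sox3, Nes, Fabp7, Slc1a3, Ncan and Ptprz1, chosen by symbol out of 25209 genes in each deposited table. All 7 are listed at every stage. Neural progenitors of the early neural tube form a pseudostratified epithelium, and they later turn into radial glia, the stem cells that line the ventricles and guide migrating neurons. Sox1 and Sox3 are transcription factors of the neuroepithelium, Nes is its intermediate filament, Fabp7 and Slc1a3 mark radial glia, and Ncan and Ptprz1 belong to the cell surface and matrix of neural tissue.

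The embryonic stem cell line V6.5, from mouse, was used as WT cells and as the Zfp512b knockout clones KO4 and KO8, in which a transcriptional terminator and a selection gene were inserted after the third exon of Zfp512b. Each knockout line is 1 clone, chosen by the study because its growth differed least from WT among the clones made. Naive cells (Day 0, medium with LIF, a MEK inhibitor and a GSK3 inhibitor) gave 3 libraries per genotype. Primed cells (Day 2, serum medium with LIF), cardiomyocyte cultures (CMs, Day 7.5, embryoid bodies with vitamin C) and neural progenitor cultures (NPCs, Day 10, embryoid bodies with 5 µM retinoic acid) gave 2 libraries per genotype each. CMs and NPCs name culture protocols, and whole embryoid bodies hold several cell types, so fewer cells of a type and less RNA per cell cannot be told apart.

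Each table gives a base mean, which averages normalized counts over WT and 1 clone, and 8 tables cover the 4 stages. Depth was about 34.2 to 39.7 megareads counted per naive library and 15.1 to 19.3 megareads at the other stages. Whole reads per library were recovered from the base means where only 1 set of whole numbers gave both tables of a stage, which held for 17 of the 28 marker and stage pairs. For 5 pairs several sets were possible, and for 6 pairs the reads were too many to search. The libraries are numbered here by size factor, since none could be matched to a sample label, and WT libraries are those present in both tables of a stage. Genotype labels of the clones rest on the names of the tables. The targeted gene had 977 and 979 reads in the primed WT libraries, 188 and 213 in KO4 and 183 and 135 in KO8. Zfp512b was thus 4.65 times lower in KO4 and 5.63 times lower in KO8 in primed cells. Reads per library were not recovered for it in naive cells and NPCs. In CMs 3 sets were possible, and they differ in the direction of the clones against WT. Its paralogue Zfp512 had base means of 1062 with KO4 and 1004 with KO8 in primed cells, with no reads per library recovered.

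A test was to be run only at stages with at least 6 of the 7 markers and 80% of the genes at a base mean of 10 or more recovered. No stage met both conditions, with 13.4% of such genes recovered in naive cells, 56.3% in primed cells, 49.9% in NPCs and 51.3% in CMs. The values are therefore descriptions first. The limma fits given beside them were added after the values were seen, against that condition, and cover only genes with recovered reads. Highly expressed genes are mostly missing from them, so their shares of called genes are not those of all genes. Nothing in the labels says whether libraries of a group are separate cultures, and p-values then measure only the spread between these libraries.

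On mm9, Sox3 is a gene of 1 exon at chrX:58144545-58146605 on the minus strand, and Nes lies at chr3:87775000-87784373 on the plus strand with 5 exons in its longest transcript. Fabp7 lies at chr10:57504687-57508256 (plus strand, 4 exons), Slc1a3 at chr15:8584124-8660764 (minus strand, 10 exons) and Ptprz1 at chr6:22825502-23002916 (plus strand, 30 exons). Ncan lies at chr8:72616984-72644772 (minus strand, 15 exons). Sox1 is not listed by name in the GENCODE vM1 annotation, but its RefSeq start site falls at position 12395519 of chromosome 8, inside the gene model Gm5607 (chr8:12385771-12436729, plus strand). Sox1 is on the plus strand too, so strand could not tell its reads from those of Gm5607 transcripts that overlap it. Whether the counting used strand is not given in the sources used here, so any overlapping transcripts of the other strand cannot be told apart either.

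The start-site windows of the 4 markers with recovered reads in CMs are shown because their reads there set KO4 apart from KO8. Each runs from 250 bases before the RefSeq start to 50 after it, 5′ to 3′ on the gene's strand, and its RefSeq sequence (matched to mm9 by exact identity) is in lower case with motif matches in capitals.
Sox1, chr8:12395269-12395568, plus strand: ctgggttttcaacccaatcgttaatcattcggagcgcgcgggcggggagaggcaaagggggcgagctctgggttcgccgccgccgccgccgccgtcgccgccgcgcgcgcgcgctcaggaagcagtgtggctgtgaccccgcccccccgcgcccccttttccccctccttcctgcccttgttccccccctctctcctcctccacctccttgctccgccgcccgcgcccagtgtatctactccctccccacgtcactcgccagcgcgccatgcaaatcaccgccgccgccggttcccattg
Fabp7, chr10:57504479-57504778, plus strand: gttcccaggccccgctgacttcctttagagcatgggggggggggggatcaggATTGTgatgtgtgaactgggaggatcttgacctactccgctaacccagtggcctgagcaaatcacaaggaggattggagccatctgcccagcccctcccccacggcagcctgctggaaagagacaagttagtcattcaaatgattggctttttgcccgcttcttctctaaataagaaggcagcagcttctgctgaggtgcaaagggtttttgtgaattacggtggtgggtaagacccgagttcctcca
Ncan, chr8:72644694-72644993, minus strand: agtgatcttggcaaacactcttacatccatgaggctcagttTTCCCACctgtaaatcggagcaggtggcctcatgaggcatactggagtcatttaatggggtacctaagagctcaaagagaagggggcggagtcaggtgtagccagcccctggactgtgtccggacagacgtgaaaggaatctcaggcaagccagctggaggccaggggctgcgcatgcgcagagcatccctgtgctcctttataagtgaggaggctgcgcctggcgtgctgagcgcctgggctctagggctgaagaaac
Ptprz1, chr6:22825252-22825551, plus strand: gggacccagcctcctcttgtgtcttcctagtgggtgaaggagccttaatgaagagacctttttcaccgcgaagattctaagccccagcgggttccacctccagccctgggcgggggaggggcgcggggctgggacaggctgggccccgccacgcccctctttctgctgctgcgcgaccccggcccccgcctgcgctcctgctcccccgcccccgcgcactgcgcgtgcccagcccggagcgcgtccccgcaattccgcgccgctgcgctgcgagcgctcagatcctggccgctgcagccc
The motifs searched on both strands were ACAAT, a core recognised by SOX factors, GTGGGAA, a core of the Notch mediator RBPJ, and TAATTA, a homeodomain core. ACAAT was in 3 of the 6 marker windows (Nes, Fabp7 and Slc1a3) against 31.0% of all 32851 windows. GTGGGAA was in the Ncan window alone of the 6, against 6.38% of all windows, and TAATTA in that of Slc1a3 alone, against 5.29%. The Sox1 window holds none of the 3 and had a GC content of 70.7%, that of Ptprz1 71.7%, Ncan 56.7% and Fabp7 54.0%, beside a median of 52.7% over all windows. Sox3 has no window in the table of RefSeq starts.

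Levels between genes are compared per kilobase of exon and per 1000000 of the table's summed base means. In the naive table of KO4 and WT, Nes was highest of the 7 at 9.45, followed by Sox1 at 0.884, Slc1a3 at 0.850, Ncan at 0.409, Sox3 at 0.392 and Ptprz1 at 0.175. Fabp7 was listed at 0 in both naive tables. In the NPC table of KO4 and WT, Nes was at 40.2, Sox3 at 15.8, Slc1a3 at 6.5, Fabp7 at 5.56, Ncan at 3.02, Sox1 at 1.94 and Ptprz1 at 1.18. All 7 were thus higher in NPC tables than in naive tables. For Sox1 the NPC means were 60.7 normalized counts in WT, 203 in KO4 and 323 in KO8. Its naive reads per library were not recovered, so the pooled tables do not show a rise of Sox1 in WT. In CMs the 2 tables parted, with Sox1 at 24.2 in the table of KO4 and WT against 1.13 in that of KO8 and WT, and Sox3 at 27.8 against 3.14. The table values pool WT and a clone and have no error, so neighbours in the order cannot be separated by a spread.

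**Figure D1:**
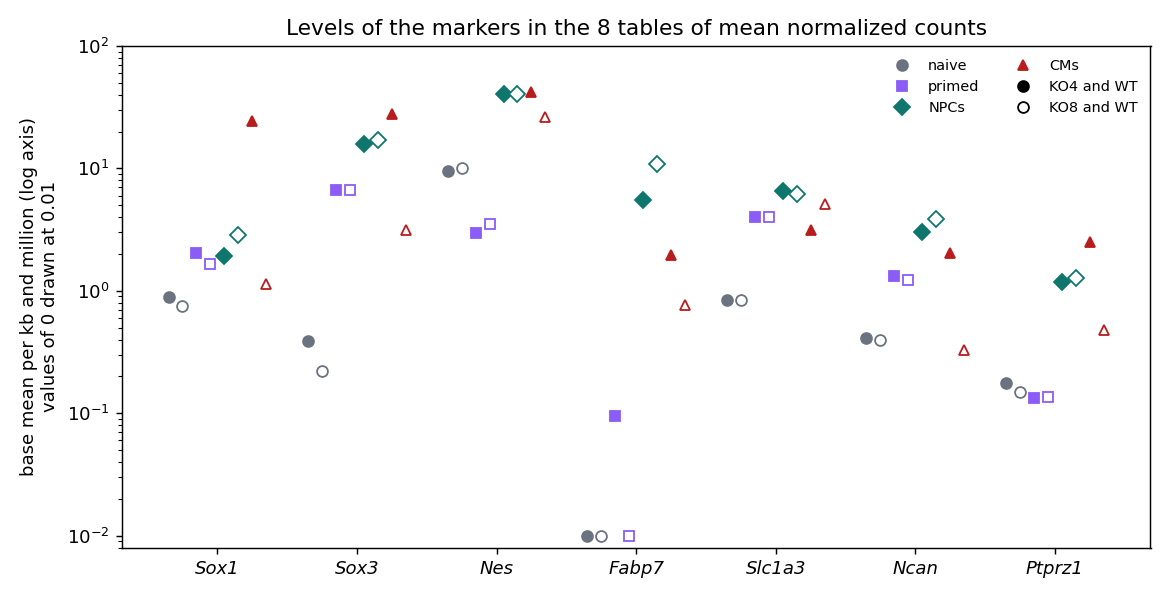
Base means of the 7 markers per kilobase and per 1000000 of the table's sum, on a log axis, for the tables of KO4 and WT (filled) and KO8 and WT (open) at the 4 stages, with values of 0 drawn at 0.01. Nes is highest in naive cells at 9.45 and reaches 40.2 in NPCs, and in CMs Sox1 is at 24.2 in one table and 1.13 in the other.

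Across the WT libraries, Ptprz1, a receptor phosphatase of radial glia, had 31 and 19 reads in primed cells, 106 and 80 in CMs and 247 and 241 in NPCs. The 3 groups did not overlap. In a limma fit over the 3 differentiation stages its log2 level was 2.80 ± 0.38 (SE, n = 2 per group) higher in NPCs than in primed cells (limma adjusted p = 3.13e-06), in a comparison where 69.2% of 6981 genes were called. It was 1.56 ± 0.41 higher in CMs than in primed cells (limma adjusted p = 0.00257, 65.4% of genes called) and 1.24 ± 0.22 higher in NPCs than in CMs (limma adjusted p = 0.000116, 49.4% called). Sox1 had 82 and 86 reads in WT primed cells, 39 and 81 in WT NPCs and 28 and 45 in WT CMs, and none of its 3 WT differences passed (limma adjusted p = 0.117, 0.0605 and 0.636). Fabp7, a fatty acid binding protein of radial glia, had 0 reads in both WT primed libraries, which allows up to 3 reads in each, against 21 and 29 in WT NPCs and 19 and 27 in WT CMs. No fold is given for it against primed cells.

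In naive cells, reads per library were recovered for Sox3, Ptprz1 and Fabp7. Sox3 had 22, 10 and 12 reads in WT, 47, 41 and 43 in KO4 and 21, 20 and 15 in KO8. The KO4 libraries lay above all others, 3.11 times WT (44.1 ± 2.20 against 14.2 ± 5.20 normalized counts, SD, n = 3), and WT and KO8 overlapped. An exact two-sided permutation test gave p = 0.1 for KO4 against WT and for KO4 against KO8, which is the smallest p that 3 against 3 can give, and p = 0.3 for KO8 against WT. Ptprz1 had 55, 46 and 33 reads in WT, 58, 58 and 58 in KO4 and 29, 43 and 53 in KO8. Its KO4 libraries were 1.35 times WT without overlap (exact permutation p = 0.1), and those of KO8 overlapped WT (exact permutation p = 0.9). The reads of Ptprz1 here are less certain, since 1.03 sets of whole numbers were expected by chance. Only base means were available for the others, and their ratio between the tables, KO4 and WT over KO8 and WT, was 1.18 for Sox1, 1.02 for Slc1a3, 1.03 for Ncan and 0.943 for Nes. A change of like size in both clones leaves this ratio near 1, so it does not show whether the clones differed from WT. None of the 6 markers with a base mean of 10 or more passed a 2-fold ratio between the tables in naive cells, as 0.187% of 13885 such genes did.

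In primed cells, where all 7 markers had recovered reads, Sox1 was higher in both clones and Nes in KO8. Sox1, which keeps neuroepithelial cells in a progenitor state, had 82 and 86 reads in WT, 194 and 200 in KO4 and 152 and 123 in KO8. The 3 groups did not overlap once normalized, with 81.9 ± 5.58 normalized counts in WT, 201 ± 5.44 in KO4 and 147 ± 8.95 in KO8 (SD, n = 2). The log2 fold change was 1.30 ± 0.19 in KO4 (limma adjusted p = 3.90e-07, with 14.5% of 8359 genes called) and 0.84 ± 0.20 in KO8 (limma adjusted p = 0.00075, with 11.9% of 8374 called). Without WT library 1 the KO4 call was lost (limma adjusted p = 0.0621). Genes of chromosome 8, where Sox1 and Ncan lie, were higher than other genes in both clones at every stage. In primed cells the median log2 fold change of 351 chromosome 8 genes exceeded that of all recovered genes by 0.43 in KO4 and 0.45 in KO8, while the other 19 chromosomes lay between -0.09 and 0.08 of it. The part of this shift in the values of Sox1 and Ncan was not tested.

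Nes, the intermediate filament by which neural progenitors are stained, had 360 and 251 reads in WT primed cells, 344 and 364 in KO4 and 470 and 427 in KO8. KO8 lay above both other groups, and both KO4 libraries, at 350 and 373 normalized counts, were slightly above the higher WT library at 342. Its log2 fold change was 0.71 ± 0.11 in KO8 (limma adjusted p = 3.08e-08) and 0.30 ± 0.12 in KO4, which was not called (limma adjusted p = 0.088). The clones differed by -0.41 ± 0.11 on the log2 scale, KO4 less KO8 (limma adjusted p = 0.0197, where 2.26% of 8359 genes were called).

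The other primed markers showed no called difference from WT. Sox3 had 234 and 255 reads in WT, 196 and 257 in KO4 and 239 and 196 in KO8, with overlapping groups. Slc1a3, the glutamate transporter of radial glia, had 555 and 568 reads in WT, 623 and 622 in KO4 and 614 and 572 in KO8. Its log2 fold change was 0.22 ± 0.08 in KO4 (limma adjusted p = 0.0659) and 0.22 ± 0.09 in KO8 (limma adjusted p = 0.0826), and both passed with upper-quartile scaling (limma adjusted p = 0.0169 and 0.0335). Ncan, a chondroitin sulfate proteoglycan of the matrix, had 149 and 184 reads in WT, 199 and 128 in KO4 and 155 and 116 in KO8. Ptprz1 had 31 and 19 reads in WT, 19 and 6 in KO4 and 15 and 11 in KO8, at limma adjusted p = 0.168 and 0.362. Fabp7 had 4 reads in each KO4 library and 0 in the 4 others, too few for the fit. Of the 6 markers with a base mean of 10 or more in either primed table, none passed a 2-fold ratio between the tables, as 0.217% of 13369 such genes did, while Fabp7, at 2.04 with KO4 and listed at 0 with KO8, was under that minimum.

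**Figure D2:**
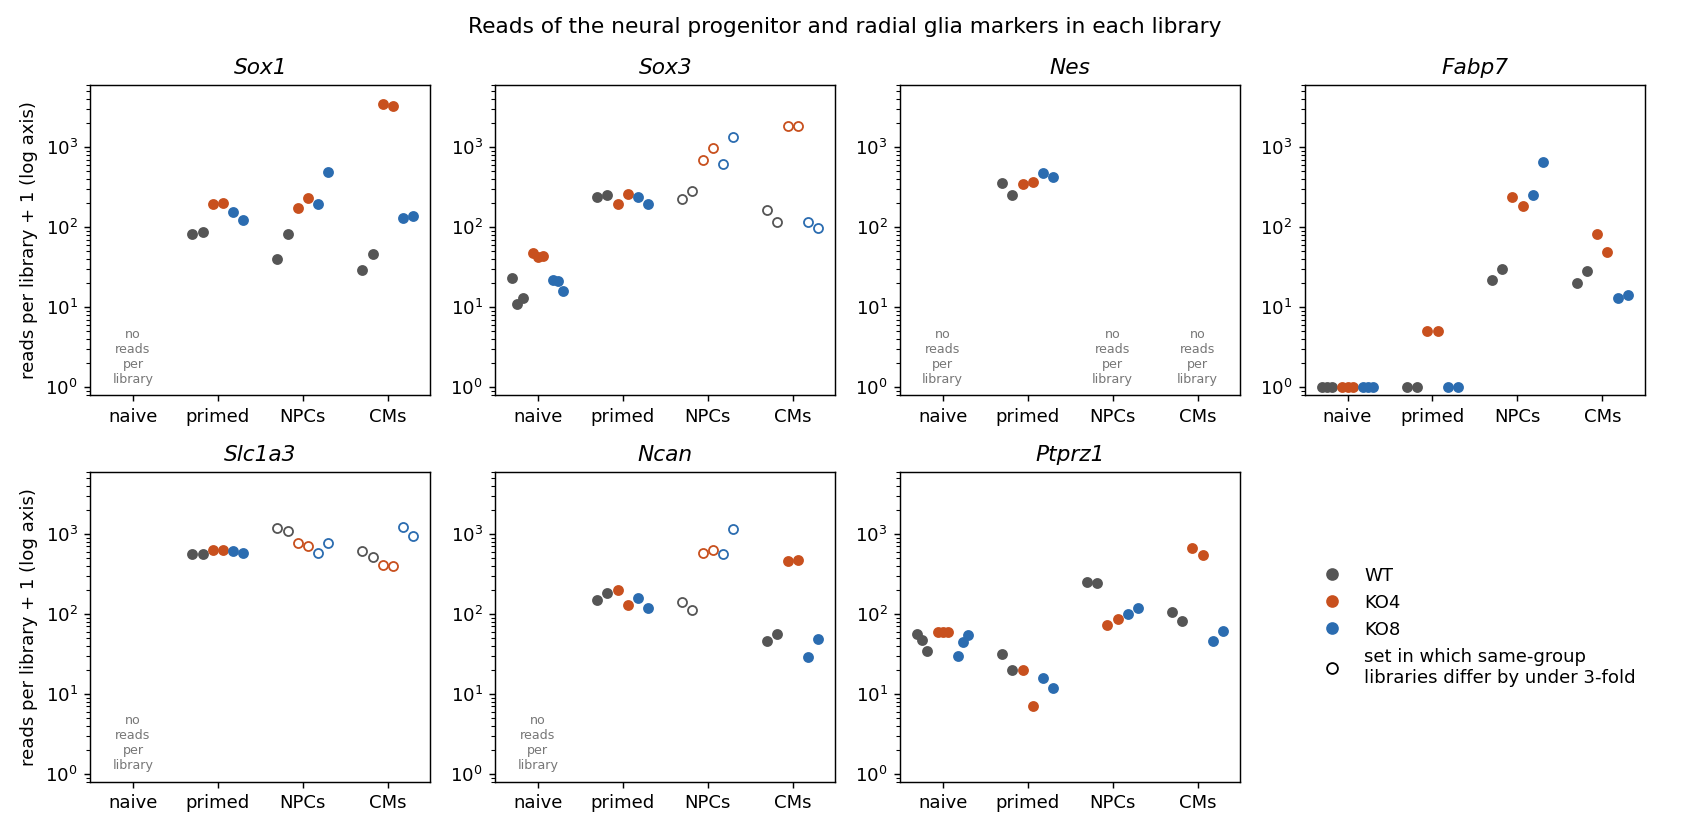
Reads of each marker per library plus 1, on a log axis, for WT, KO4 and KO8 at the 4 stages, not scaled for depth, with open points for genes where several sets of reads were possible and the set with same-group libraries within 3-fold is drawn. In CMs the KO4 points of Sox1 (3436 and 3262 reads) stand above those of WT (28 and 45) and KO8 (129 and 135).

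In NPCs, Sox1 and Fabp7 were higher and Ptprz1 lower in KO4 than in WT, and both KO8 libraries lay on the same side of WT for each. Such separation of 2 against 2 libraries has an exact permutation p of 0.333, and its share over all genes was not counted. The KO8 libraries differed more from each other than those of other groups, with 12.1% of 7115 recovered genes over 2-fold apart against 3.61% to 8.02% in the other groups of 2. Fabp7 had 21 and 29 reads in WT, 234 and 184 in KO4 and 252 and 658 in KO8. It was 8.34 times WT in KO4 and 17.1 times in KO8, without overlap with WT. Its log2 fold change was 3.08 ± 0.33 in KO4 (limma adjusted p = 7.94e-10, where 15.9% of 7985 genes were called) and 3.91 ± 0.96 in KO8 (limma adjusted p = 0.0973, where 0.876% of 8105 were called). The KO8 difference of Fabp7 depended on the libraries kept. It passed without KO8 library 1 (log2 fold change 4.67, limma adjusted p = 1.30e-39) or library 2 (3.19, limma adjusted p = 1.18e-15), in fits that take the lone library to vary as the WT pair does, and did not pass without WT library 1 or 2 (limma adjusted p = 0.674 and 0.474). In a fit over all 3 groups KO8 passed (limma adjusted p = 0.0446) and KO4 did not (limma adjusted p = 0.142).

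Sox1 had 39 and 81 reads in WT NPCs, 175 and 228 in KO4 and 193 and 491 in KO8, so that every clone library lay above both WT libraries. Its log2 fold change was 1.85 ± 0.27 in KO4 (limma adjusted p = 7.60e-07) and 2.34 ± 0.70 in KO8 (limma adjusted p = 0.139). In the fit over all 3 groups the KO4 call of Sox1 was lost (limma adjusted p = 0.212), and without WT library 1 its value was 1.23, still called. The KO8 difference of Sox1 passed without KO8 library 1 or 2 (log2 fold change 3.09 and 1.65, limma adjusted p = 2.51e-29 and 2.39e-06) and did not without WT library 1 or 2 (1.73 and 2.92, limma adjusted p = 0.742 and 0.503). Chromosome 8 genes were higher by 0.52 in KO4 and 0.51 in KO8 NPCs, as medians of 310 genes relative to all. Ptprz1 had 247 and 241 reads in WT, 71 and 85 in KO4 and 99 and 117 in KO8, with all clone libraries below WT. It fell 3.09-fold in KO4 (log2 fold change -1.63 ± 0.21, limma adjusted p = 6.76e-08). In KO8 the ratio of WT to clone was 2.41 (log2 fold change -1.28 ± 0.22, limma adjusted p = 0.0531), and this passed without KO8 library 1 or 2 (limma adjusted p = 0.000465 and 2.07e-05) but not without WT library 1 or 2 (0.631 and 0.469). The clones did not pass against each other for any of the 3 genes, where 0.533% of 8066 genes were called, and the 95% intervals of KO4 less KO8 reached from -1.72 to 0.05 for Fabp7, from -1.38 to 0.38 for Sox1 and from -0.86 to 0.14 for Ptprz1.

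For Sox3, Ncan and Slc1a3 in NPCs several sets of reads were possible. In both sets for Ncan the mean normalized count was 123 to 167 in WT, 564 to 608 in KO4 and 758 to 802 in KO8. The means of both clones were thus above that of WT under either. In 1 of the sets, however, a KO4 library of 32 reads lay below both WT libraries, at 78 and 250 reads. Sox3 had a WT mean of 253 or 482, a KO4 mean of 846 or 616 and a KO8 mean of 923 or 694. Both clone means were again above the WT mean in both sets. The set with same-group libraries within 3-fold gives 222 and 284 reads for WT, 697 and 976 for KO4 and 614 and 1347 for KO8. In the other, with 779 and 218 reads in WT, 851 and 394 in KO4 and 1125 and 391 in KO8, the groups overlapped. Slc1a3 had 5 sets, with a WT mean anywhere from 160 to 1128, a KO4 mean from 739 to 1707 and a KO8 mean from 626 to 1594, which leaves its direction undetermined. The single set of the 5 with libraries within 3-fold holds 1185 and 1087 reads in WT, 772 and 703 in KO4 and 573 and 767 in KO8. These sets were picked by the closeness of replicates, so they carry no SD and no test. Nes had base means of 4344 with KO4 and 4359 with KO8 on one scale, a ratio of 0.997. This ratio cannot show a change of Nes that both clones share. No marker passed a 2-fold ratio between the NPC tables, as 0.885% of 14570 genes did. Fabp7 was nearest at 1.94 times higher in the table of KO8 and WT.

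In CMs, Sox1, Sox3, Ncan, Ptprz1 and Fabp7 were highest in KO4 of the 3 genotypes, and of the markers with recovered reads Sox1 stood furthest above WT. Sox1 had 28 and 45 reads in WT, 3436 and 3262 in KO4 and 129 and 135 in KO8. KO4 was 98.7 times WT and KO8 3.68 times WT, with no overlap among the 3 groups. The log2 fold change was 6.66 ± 0.28 in KO4 (limma adjusted p = 1.91e-06, where 45.6% of 8052 genes were called) and 1.92 ± 0.31 in KO8 (limma adjusted p = 0.00151, where 20.5% of 8041 were called). The clones differed by 4.75 ± 0.16 (limma adjusted p = 3.33e-10, where 48.6% of 8120 were called). Chromosome 8 genes were higher by 0.51 in KO4 and 0.53 in KO8 CMs, as medians of 312 genes relative to all.

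Ncan had 45 and 55 reads in WT CMs, 455 and 476 in KO4 and 28 and 47 in KO8. KO4 was 10.1 times WT (log2 fold change 3.33 ± 0.24, limma adjusted p = 1.39e-05), and KO8 overlapped WT (-0.43 ± 0.37, limma adjusted p = 0.459). Ptprz1 had 106 and 80 reads in WT, 666 and 551 in KO4 and 45 and 60 in KO8. KO4 was 7.11 times WT (log2 fold change 2.82 ± 0.21, limma adjusted p = 1.64e-05), whereas both KO8 libraries lay below WT at -0.80 ± 0.29 (limma adjusted p = 0.0719, and 0.0114 without WT library 2). Fabp7 had 19 and 27 reads in WT, 81 and 48 in KO4 and 12 and 13 in KO8. Its log2 fold change was 1.57 ± 0.42 in KO4 (limma adjusted p = 0.0128) and -0.80 ± 0.49 in KO8 (limma adjusted p = 0.29), and the KO4 call was lost without WT library 1 (limma adjusted p = 0.124), WT library 2 (0.0626) or KO4 library 1 (0.0582). KO4 exceeded KO8 by 3.76 ± 0.28 for Ncan, 3.62 ± 0.25 for Ptprz1 and 2.37 ± 0.48 for Fabp7 on the log2 scale (limma adjusted p = 2.25e-07, 1.34e-07 and 0.00106).

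Sox3 had 2 possible sets of reads in CMs, which give nearly the same means, 129 or 132 in WT, 1928 or 1930 in KO4 and 103 or 105 in KO8. Its KO4 level was thus about 14.6 times WT in the set with libraries within 3-fold. Slc1a3 differed from the other markers. Its 2 sets give KO4 means of 50.9 and 422, WT means of 914 and 543 and KO8 means of 672 and 1044, so KO4 was lowest in both, and the order of WT and KO8 depends on the set. Nes was too high to search. Its base mean was 1.60 times higher in the table of KO4 and WT, so its KO4 mean exceeded that of KO8 by 3637 normalized counts.

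**Figure D3:**
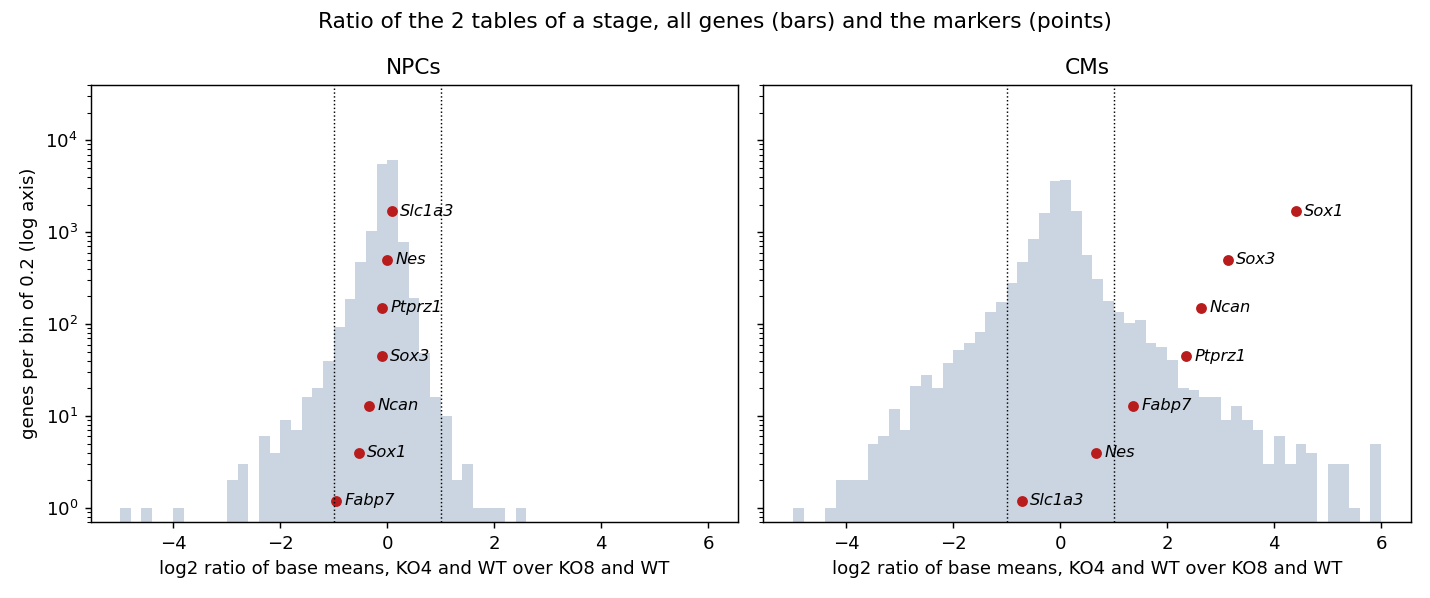
Log2 ratio of the base means of KO4 and WT over those of KO8 and WT in NPCs and CMs, with bars for all genes at a base mean of 10 or more in either table (log axis, values beyond the axis in the end bins) and red points for the markers at arbitrary heights; dotted lines mark 2-fold. In CMs 5 markers lie past the right line, up to 21.3-fold for Sox1, and in NPCs none lies past a line.

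A ratio of the tables over 2 means that the clone of the higher table was above both WT and the other clone, since no library is below 0. By this measure 5 of the 7 markers were higher in KO4 CMs, Sox1 with a ratio of 21.3, Sox3 8.79, Ncan 6.23, Ptprz1 5.12 and Fabp7 2.58, where 8.93% of 14578 genes passed in either direction. Nes at 1.60 and Slc1a3 at 0.608 did not pass. Sox1 ranked 22 of the 14578 genes and Sox3 66. The measure needs no recovered reads, and the same 5 markers passed when the tables were scaled by total or by upper quartile.

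Between the lineages, the KO4 effect on Sox1 was smaller in NPCs than in CMs, a difference of -4.82 ± 0.81 on the log2 scale (limma adjusted p = 0.00019, where 25.2% of 6981 genes were called). That on Ptprz1 differed by -4.48 ± 0.31 (limma adjusted p = 1.10e-08), downward in NPCs and upward in CMs. For Fabp7 the difference was 1.50 ± 1.28 and was not called (limma adjusted p = 0.433). In KO8 none of the 3 differences passed, where 12.4% of 6981 genes were called, and that of Fabp7 was 4.73 ± 1.57 (limma adjusted p = 0.0539).

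**Figure D4:**
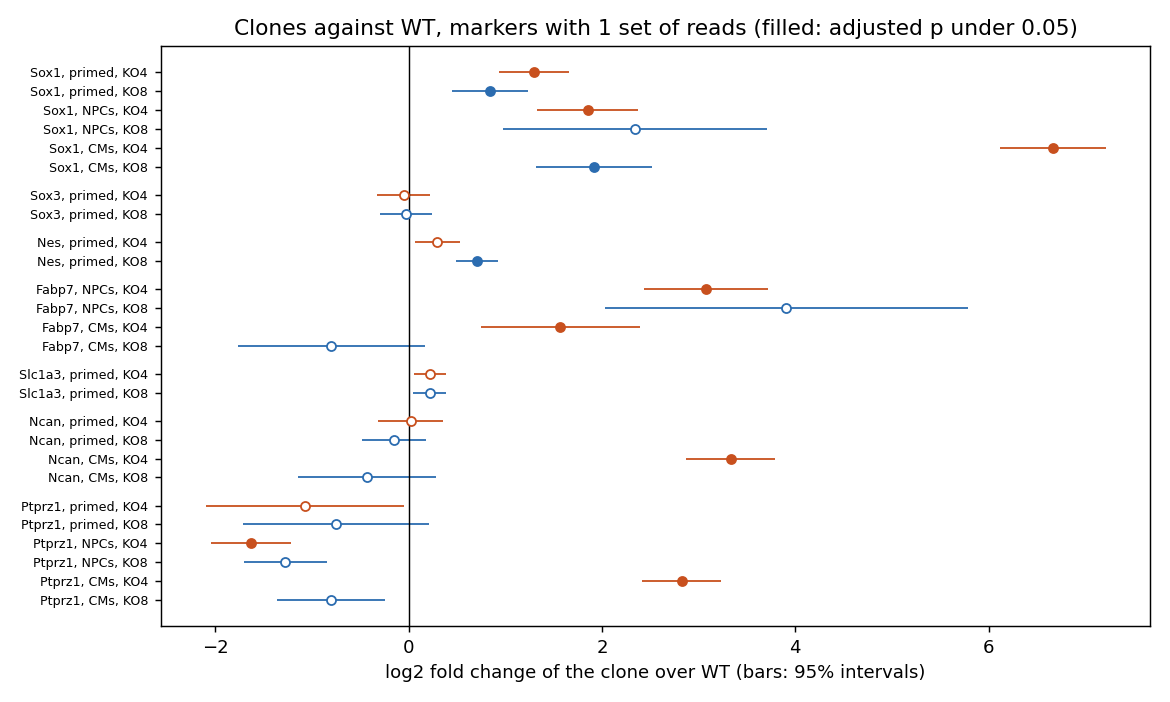
Log2 fold changes of each clone over WT for markers with 1 set of reads, from the limma fits added after the values were seen, with bars for 95% intervals, KO4 in orange, KO8 in blue, and filled points for adjusted p under 0.05 over all genes tested. Sox1 reaches 6.66 in KO4 CMs, and Ptprz1 lies at -1.63 in KO4 NPCs and 2.82 in KO4 CMs.

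Of 30 other genes of neural progenitors and radial glia, 13 were tested in KO4 NPCs, and 8 were higher and 1 lower, while in KO8, where 14 were tested, none was higher and 1 lower. Over all genes tested, 15.9% were called in KO4 and 0.876% in KO8 NPCs in either direction. The median log2 fold change of the genes tested was 1.15 in KO4 and 1.26 in KO8, beside -0.02 and 0.01 over all genes. Sox21 and Ttyh1 were among those higher in KO4 NPCs, at 2.37 ± 0.28 and 1.89 ± 0.27. In KO8 NPCs they were at 3.12 ± 0.78 and 2.15 ± 0.63 without a call (limma adjusted p = 0.0999 and 0.136). The clones did not pass against each other for either gene (limma adjusted p = 0.484 and 0.809). Emx2, a transcription factor of the dorsal forebrain, was lower in both clones in NPCs, with 250 and 240 reads in WT, 114 and 102 in KO4 and 118 and 93 in KO8. In CMs 10 of the 15 tested in KO4 were higher and 3 lower, and 1 of 13 was higher and 6 lower in KO8, at medians of 1.65 and -0.57 beside -0.05 and -0.02 over all genes. Over all genes tested in CMs, 45.6% were called in KO4 and 20.5% in KO8 in either direction. Emx2 was higher in both there, with 10 and 5 reads in WT, 881 and 825 in KO4 and 32 and 22 in KO8. Hopx, Id4 and Ednrb were lower in both clones in CMs, Ednrb, the endothelin receptor, with 1009 and 706 reads in WT, 12 and 20 in KO4 and 603 and 516 in KO8. Pax6 and Hes5, a target of Notch signaling, were higher in KO4 CMs by 5.54 ± 0.20 and 3.12 ± 0.43. In KO8 CMs they were at 0.62 ± 0.25 and 0.92 ± 0.50, not called (limma adjusted p = 0.103 and 0.223). In primed cells 18 were tested, with 1 higher and 1 lower in each clone. Over all genes tested, 14.5% were called in KO4 and 11.9% in KO8 primed cells in either direction. Gli3, the Hedgehog pathway factor, was higher (0.81 ± 0.13 in KO4 and 0.82 ± 0.14 in KO8) and Id4 lower (-1.06 ± 0.30 and -1.42 ± 0.34) in both clones.

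Markers of other cell types moved beside these genes in CMs. Of 12 neuronal markers 7, and of 10 pluripotency markers 6, passed 2-fold toward KO4, with summed base means 2.47 and 1.71 times higher in the table of KO4 and WT, where 8.93% of all genes passed in either direction. All 10 cardiac markers had a base mean of 10 or more in CMs, as all 12 neuronal markers did in NPCs. Of the 10 cardiac markers none passed toward KO4 and 2 toward KO8, and their summed base mean was 1.48 times higher in the table of KO8 and WT. Of 8 endoderm markers 4 passed toward KO8 (summed 2.07 times higher there), of 8 neural crest markers 4 passed toward KO4 and 1 toward KO8, and of 6 genes of the oligodendrocyte lineage 1 passed each way. The summed neural crest and oligodendrocyte lineage genes were 1.34 and 2.14 times higher in the table of KO8 and WT. These sums rest mostly on a few high genes, as Pdgfra, with unscaled base means of 438 with KO4 and 1679 with KO8. The median log2 ratios, KO4 and WT over KO8 and WT, went the other way, at 1.01 for neural crest and 0.09 for oligodendrocyte lineage genes. In NPCs the summed neuronal and pluripotency markers were 1.30 and 1.47 times higher in the table of KO8 and WT. The summed cardiac and endoderm markers were 1.33 and 1.12 times higher in that of KO4 and WT. Tbx5 made up most of the cardiac sum, 854 of 1079 with KO4. The median log2 ratio, KO4 and WT over KO8 and WT, was -0.17 for cardiac and -0.01 for endoderm markers. Of the cardiac markers 0 passed 2-fold toward KO4 and 1 toward KO8. The part of these cell types in the marker values was not tested.

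Over the 8 tables, the genes whose scaled log2 level was most like the mean standardized pattern of the 7 markers were Unc119b (Pearson r = 0.994), St8sia3 (0.993), Sfrp2 (0.992), Reep2 (0.990) and Ildr2 (0.989), out of 12626 genes averaging a base mean of 50 or more. The tables of a stage share their WT libraries, and 8 points separate few patterns. Among the markers the likeness ran from 0.732 for Sox1 to 0.930 for Ptprz1.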

How the data were processed

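mRNA was sequenced in 27 libraries. Per the labels and the study's methods, the authors trimmed reads with Trim Galore 0.6.7, aligned them to mm9 with HISAT2 2.2, counted them per gene with featureCounts and normalized and tested with DESeq2 1.46.0. The deposited base mean is a signal value, the authors' mean of counts divided by size factors over WT and 1 clone. The tables' 5 other columns hold the authors' fold change, its error, Wald statistic, p-value and adjusted p-value and were not used.

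The step of 1 read in each library (its inverse size factor) was read from genes with 1 read, and steps common to both tables of a stage were taken as WT. Reads were accepted where exactly 1 set of whole numbers gave both base means within 0.65 of the last written place. Genes were searched where up to 0.5 sets were expected by chance, but the markers and Zfp512b up to 20. Single sets past 0.5 were those of Ptprz1 in naive cells (1.03) and of Slc1a3 (0.694) and Zfp512b (0.595) in primed cells. The search limits and this tolerance were adjusted over several runs, until no gene searched lacked a set and before the markers' p-values were computed. At a tolerance of 0.51 Sox3 has a single set in NPCs and CMs, that with libraries within 3-fold. That 3-fold rule was set after seeing the values. For Zfp512b in CMs it keeps 2 sets of opposite direction. Their means are 148 in WT, 1138 in KO4 and 1105 in KO8, or 1089, 196 and 164. The rule alone therefore does not ensure the true set. On simulated reads the single sets that the search returned were the true ones. The simulated means were lower than many marker reads here, as those of Sox1 in KO4 CMs, and the steps were known, not estimated. Reads at such levels are therefore not covered by this check. The recovered libraries carry no replicate number and no sample label.

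Contrary to the design, which allowed no test where under 80% of genes or under 6 markers were recovered, limma 3.58.1 (R 4.3.3, voom weights, size factors of the tables) was run on uniquely recovered genes with a mean of at least 5 normalized counts, with Benjamini-Hochberg adjustment over all genes tested, called under 0.05. Clone comparisons used the libraries of both groups, KO4 against KO8 all libraries of the stage, and comparisons across stages the 18 libraries of primed cells, NPCs and CMs. Naive cells were compared by exact permutation tests only. The 2 clone comparisons of a stage share WT libraries. With 2 against 2, an exact permutation test cannot go below p = 0.333. Intervals called 95% are nominal, 1.96 SE each way. They leave out how few libraries estimate the spread, so they are narrower than true 95% intervals. The fit was also checked on simulated counts.

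The markers and gene lists were chosen with earlier results of these data known. All 7 markers are named, with up to 6 other progenitor genes per stage that both clones called with 1 sign, taken by size, and the 5 genes most like the markers. The likeness was to use all libraries, but used the 8 tables because reads were not recovered for all markers. Genes called in KO4 but not in KO8 at the stage given (Sox21, Ttyh1, Pax6 and Hes5) were named after their values were seen. Python 3.11.15, numpy 2.4.6, pandas 2.3.3, scipy 1.17.1 and matplotlib 3.10.9 were used. Counting precision is limited by the reads given for each library.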

Additional observations from a re-analysis of the deposited data

Results flagged for a closer look

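The following results were singled out because an effect differed between the clones or between the lineages by a direct limma test with adjusted p under 0.05. In CMs, KO4 less KO8 was 4.75 for Sox1, 2.37 for Fabp7, 3.76 for Ncan and 3.62 for Ptprz1 on the log2 scale. In primed cells it was -0.41 for Nes. The KO4 effect in NPCs less that in CMs was -4.82 for Sox1 and -4.48 for Ptprz1. All rest on the fits added after the values were seen, on 2 libraries per group, and no cause was tested.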

How the results depend on the processing

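No paired analysis was possible because the recovered libraries carry no replicate number. The limma fits depart from the design, which allowed no test at these recovery shares, and naive cells had none.

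Under other settings 203 of 222 marker values kept direction and side of the threshold, 2 lost and 14 gained a call and 3 reversed; with 1 library left out these numbers were 85 of 104, 4, 7 and 8. Upper-quartile scaling turned Sox3 in primed cells to 0.01 in both clones (0.0082 in KO4 and 0.0075 in KO8), and scaling by total reads turned Fabp7 in WT NPCs against WT CMs to 0.26. Leaving out a library gave Sox3 in primed cells values from -0.25 to 0.15 in KO4 and -0.13 to 0.065 in KO8, Ncan -0.29 to 0.33 in KO4 and -0.34 to 0.030 in KO8 in primed cells, and Ncan -0.84 to 0.018 in KO8 CMs. None of these was called.

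Genes called in primed KO4 went from 1209 to 409 with no filter, and over omitted libraries ranged from 37 (WT 1) and 69 (WT 2) to 777. Primed KO8 (998) ranged from 549 to 695, NPC KO4 (1270) from 795 to 1153, and CM KO8 (1648) from 882 to 2063. NPC KO4 fell to 189 in 1 fit over all 3 groups. NPC KO8 (71) gave 549 and 552 with a trend on log2 values at pseudocounts of 1 and 5, 310 with upper-quartile scaling, 109 with no filter, 25 with a minimum mean of 20, 448 in 1 fit over all 3 groups and 0 to 1693 with a library left out, 0 without either WT library (limma, with 592 and 792 genes at an unadjusted p under 0.05), 1693 without KO8 library 1 and 906 without KO8 library 2. KO4 against KO8 in NPCs fell from 43 to 2 with those groups alone. The cause of these shifts was not tested. The 5 markers past 2-fold between the CM tables passed under both other scalings. Markers with few reads, as Fabp7 in primed cells, are limited by counting error, and Nes outside primed cells by the lack of reads per library.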
